A study of Mus musculus with 16 samples.

Results

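A set of 9 genes known from macrophages and monocytes was followed across the 8 biological samples of follicular B cells in the series. They were taken by name, with older names accepted, from the gene name column of the array files, where Adgre1 stands as Emr1 and Lyz2 as Lyzs. All 9 genes, Lyz2, Adgre1, Spic, Clec7a, Csf1r, C1qa, C1qb, Cd68 and Cd14, were found, on 14 of 41174 probes, and all 9 were among the 20487 genes tested. Of the 14 probes 13 passed the filter on dim probes. Expression was measured on dual-colour Agilent mouse arrays, and every value is the log2 ratio of the sample over a common reference RNA from 6 cell lines (P388d, DN3, EL4, J558, RS2 and R1), averaged over the 2 arrays of a dye-swap pair. A ratio above 0 means more signal than in that reference, and since P388d is a macrophage-like line, the reference carries macrophage transcripts of its own.

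All mice were of strain C.B17, and the labels name every sample follicular B cells, which recirculate and populate the follicles of lymphoid organs, without saying how they were purified. Auto.Pos cells (n = 2) came from AGcA transgenic mice whose receptor, VH3609µ/Vk19-17κ, binds goblet cells of the intestine (one label names the light chain transgene Vkappa17-17kappa instead). Auto.Neg cells (n = 2) carried the receptor against thymocytes and Thy-1 (VH3609µ/Vk21-5κ) in Thy-1 knockout mice, which lack its antigen. Edited and Non-edited cells (n = 1 each) came from VH3609t +/- x Vk21-5Tg +/- mice, also Thy-1 knockout, and WT cells (n = 2) from wild type mice. The labels do not say whether the 2 samples of a group came from different mice, so a p-value here speaks only of the spread among the samples at hand, which may be technical. The number of arrays limits the precision.

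Thy1, the targeted gene, read -4.54 to -3.73 over all samples on its brightest probe. Its dimmer probe read -2.93 and -3.77 in Auto.Pos, -0.55 and 0.46 in Auto.Neg, -1.43 in Edited, -0.52 in Non-edited and -3.62 and -3.06 in WT. On that probe the 4 knockout samples all read higher than the 4 others, so as to knockout it follows the labels of the scanner files. It cannot check labels inside either set, such as those of Auto.Pos against WT. Which part of the gene was deleted is not stated, and the direction checks no loss of transcript. The series table of processed ratios disagreed with the scanner files on which array belongs to which sample, since 10 of its 16 columns matched another array best, so the scanner files were used. The arrays of WT sample 2 disagreed most with each other, with a median gap of 1.16 over the 9 genes against 0.17 to 0.64 in the other samples. The arrays were scanned on 4 days. WT sample 1 stood alone on day 1, Auto.Pos sample 1 and Auto.Neg sample 2 shared day 2 and a slide, Auto.Pos sample 2 and WT sample 2 shared day 3, and Auto.Neg sample 1, Edited and Non-edited shared day 4. The median log2 ratio of follicular B cell genes (16 of 16 measured) was 4.26 to 5.39 per sample. Single genes of the list lay near the reference, such as Pax5 at 0.17 and 0.25 in WT and Ebf1 at 0.76 to 1.45. The median of 15 T cell genes was -3.25 to -2.30, although single genes of that list, such as Cd2 at 3.92 to 4.89, read above the reference.

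As background, macrophages are tissue phagocytes that depend on signalling through the receptor encoded by Csf1r, and in the spleen they lie next to the B cell follicles and clear dying cells and old erythrocytes. C1qa and C1qb encode chains of C1q, the recognition part of the classical complement pathway, which macrophages secrete. Spic encodes the transcription factor Spi-C, which red pulp macrophages need and which B cells also express. In bulk RNA, fewer cells of a type and less RNA per cell cannot be told apart.

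Of the 9 genes, 4 had more than 1 probe, and their probes did not read alike. For each of these 4 genes the brightest probe lay farthest towards the 3' end, by the positions in the array files (build mm7). The 2 C1q probes and the dimmer probes of Lyz2 and Adgre1 are shown here. The first pair was taken because these genes moved most alike, the second because they read closer to the reference than the brighter probe of the same gene. All probes are 60 bases long.
C1qa probe, chr4:136274931-136274990, minus strand: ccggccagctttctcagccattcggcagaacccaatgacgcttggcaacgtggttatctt
C1qb probe, chr4:136259100-136259159, minus strand: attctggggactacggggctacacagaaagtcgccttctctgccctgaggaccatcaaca
Lyz2 dimmer probe, chr10:116790004-116790063, minus strand: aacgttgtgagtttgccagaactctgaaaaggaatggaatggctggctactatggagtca
Adgre1 dimmer probe, chr17:55613754-55613813, plus strand: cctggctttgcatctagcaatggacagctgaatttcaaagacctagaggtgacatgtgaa
At their best ungapped alignment the C1qa and C1qb probes shared 18 of 58 bases, with a longest common run of 5, so they are not near copies of each other. The dimmer Lyz2 probe, 4725 bases upstream of the brightest one, read -0.10 to 0.74 over the 8 samples, against 0.57 to 4.27 for the brightest probe. It was well above background on 14 of 16 arrays in the sample channel and on 9 in the reference channel, so its low ratios do not show equal levels. The dimmer Adgre1 probe, 72895 bases upstream, was well above background on 2 of 16 arrays, did not pass the filter and read -0.10 to 0.21. The dimmer Spic probe, only 113 bases upstream, read 2.57 to 4.98, close to the 3.05 to 5.89 of the brightest probe. Csf1r read 2.36 to 4.21 on its brightest probe, 0.88 to 1.64 on a probe 685 bases upstream and 0.04 to 0.39 on one 20962 bases upstream. All further values are those of the brightest probe of each gene, which was well above background in the sample channel on 16 of 16 arrays for all 9 genes. The reference channel was well above background on only 4 of 16 arrays for Clec7a, 7 for Spic, 8 for Adgre1, 12 for C1qa and 15 for Cd14. For the other genes it was so on 16. Ratios of the former genes thus rest partly on a dim reference signal. Ratios of different probes are not levels that can be set against each other.

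**Figure D1:**
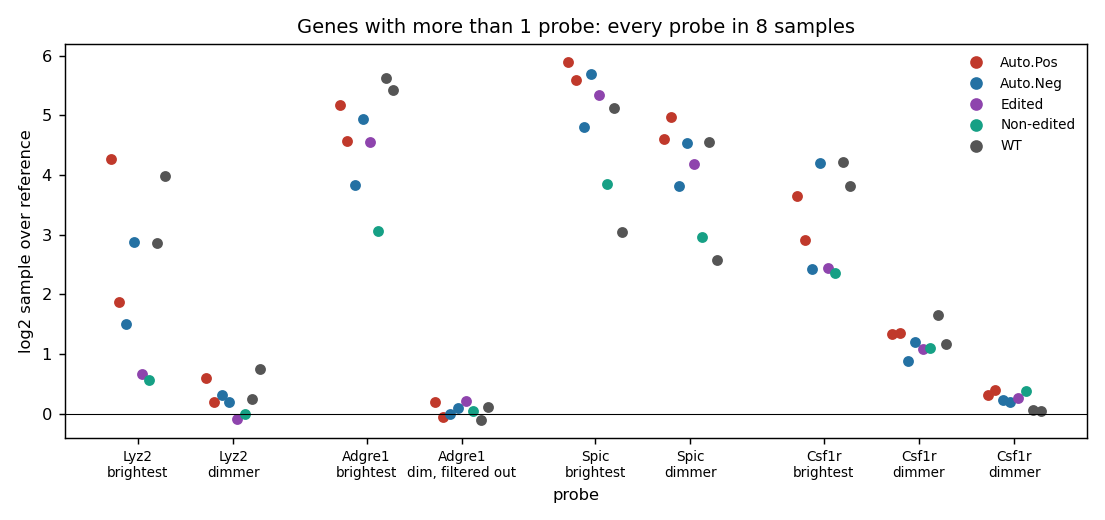
Log2 sample over reference (vertical axis) of every probe of the 4 genes with more than 1 probe (horizontal axis), with 1 point per biological sample, coloured by group. The dimmer probes of Lyz2 and Adgre1 lie at -0.10 to 0.74 and at -0.10 to 0.21, whereas both Spic probes lie well above 0.

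Of the 9 genes, 8 read above the reference in all 8 samples, and Cd68 read below it in all 8. Lyz2, which encodes a lysozyme of macrophages and granulocytes, had the widest range. It read 4.27 and 1.87 in Auto.Pos, 1.49 and 2.87 in Auto.Neg, 0.66 in Edited, 0.57 in Non-edited and 2.85 and 3.98 in WT. Edited and Non-edited were lowest, and the groups of 2 overlapped. The related gene Lyz1 is not one of the 9, and the accession field of its probe lists the transcripts of both lysozymes, so by that field the pair cannot be fully separated. At their best ungapped alignment the Lyz1 probe and the brightest Lyz2 probe shared 20 of 49 bases, with a longest common run of 5.

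Among the surface receptors, Adgre1 encodes the classical surface antigen of mouse macrophages. It read 5.18 and 4.57 in Auto.Pos, 3.83 and 4.94 in Auto.Neg, 4.55 in Edited, 3.06 in Non-edited and 5.62 and 5.42 in WT. By sample means both WT samples were above all others, and Non-edited was lowest. The single arrays of WT sample 2 gave 5.85 and 4.99, those of Auto.Pos sample 1 gave 5.43 and 4.92 and those of Auto.Neg sample 2 gave 5.09 and 4.79. Single arrays of these groups thus overlapped. Clec7a encodes Dectin-1, a receptor for fungal beta-glucan. It read 4.17 and 3.09 in Auto.Pos, 2.45 and 2.83 in Auto.Neg, 2.31 in Edited, 2.06 in Non-edited and 4.50 and 4.79 in WT. By sample means its 3 replicated groups did not overlap, with WT highest and Auto.Neg lowest. The single arrays of WT sample 2 gave 5.80 and 3.78, and those of Auto.Pos sample 1 gave 4.45 and 3.90, so single arrays of these groups overlapped.

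Csf1r, the receptor for the macrophage growth factors CSF1 and IL-34, read 3.65 and 2.92 in Auto.Pos, 2.43 and 4.19 in Auto.Neg, 2.44 in Edited, 2.36 in Non-edited and 4.21 and 3.81 in WT. The 2 Auto.Neg samples lay far apart, 1 with the lowest samples and 1 with the highest. Cd14, the co-receptor for bacterial lipopolysaccharide, read 1.98 and 1.06 in Auto.Pos, 0.90 and 2.21 in Auto.Neg, 1.00 in Edited, 0.93 in Non-edited and 2.50 and 1.5 in WT. Its order of samples was much like that of Csf1r, and its groups overlapped.

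The complement gene C1qa read 4.08 and 3.24 in Auto.Pos, 2.55 and 3.92 in Auto.Neg, 2.54 in Edited, 2.34 in Non-edited and 3.66 and 3.0 in WT. C1qb spanned less, at 1.58 and 1.09 in Auto.Pos, 0.74 and 1.63 in Auto.Neg, 0.68 in Edited, 0.77 in Non-edited and 1.44 and 1.09 in WT. In both, Auto.Neg sample 1, Edited and Non-edited were the 3 lowest samples. The third chain, C1qc, was measured as well and read 3.95 and 3.34 in Auto.Pos, 2.88 and 4.50 in Auto.Neg, 3.20 in Edited, 2.88 in Non-edited and 4.51 and 4.68 in WT.

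Spic and Cd68 followed other orders. Spic read 5.89 and 5.59 in Auto.Pos, 4.80 and 5.69 in Auto.Neg, 5.34 in Edited, 3.85 in Non-edited and 5.12 and 3.05 in WT. It was lowest in WT sample 2, whose 2 arrays gave 4.27 and 1.83. Cd68, which encodes the endosomal glycoprotein macrosialin, read -1.51 and -0.47 in Auto.Pos, -0.71 and -1.21 in Auto.Neg, -1.23 in Edited, -1.33 in Non-edited and -0.77 and -0.38 in WT, with Auto.Pos sample 1 lowest.

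**Figure D2:**
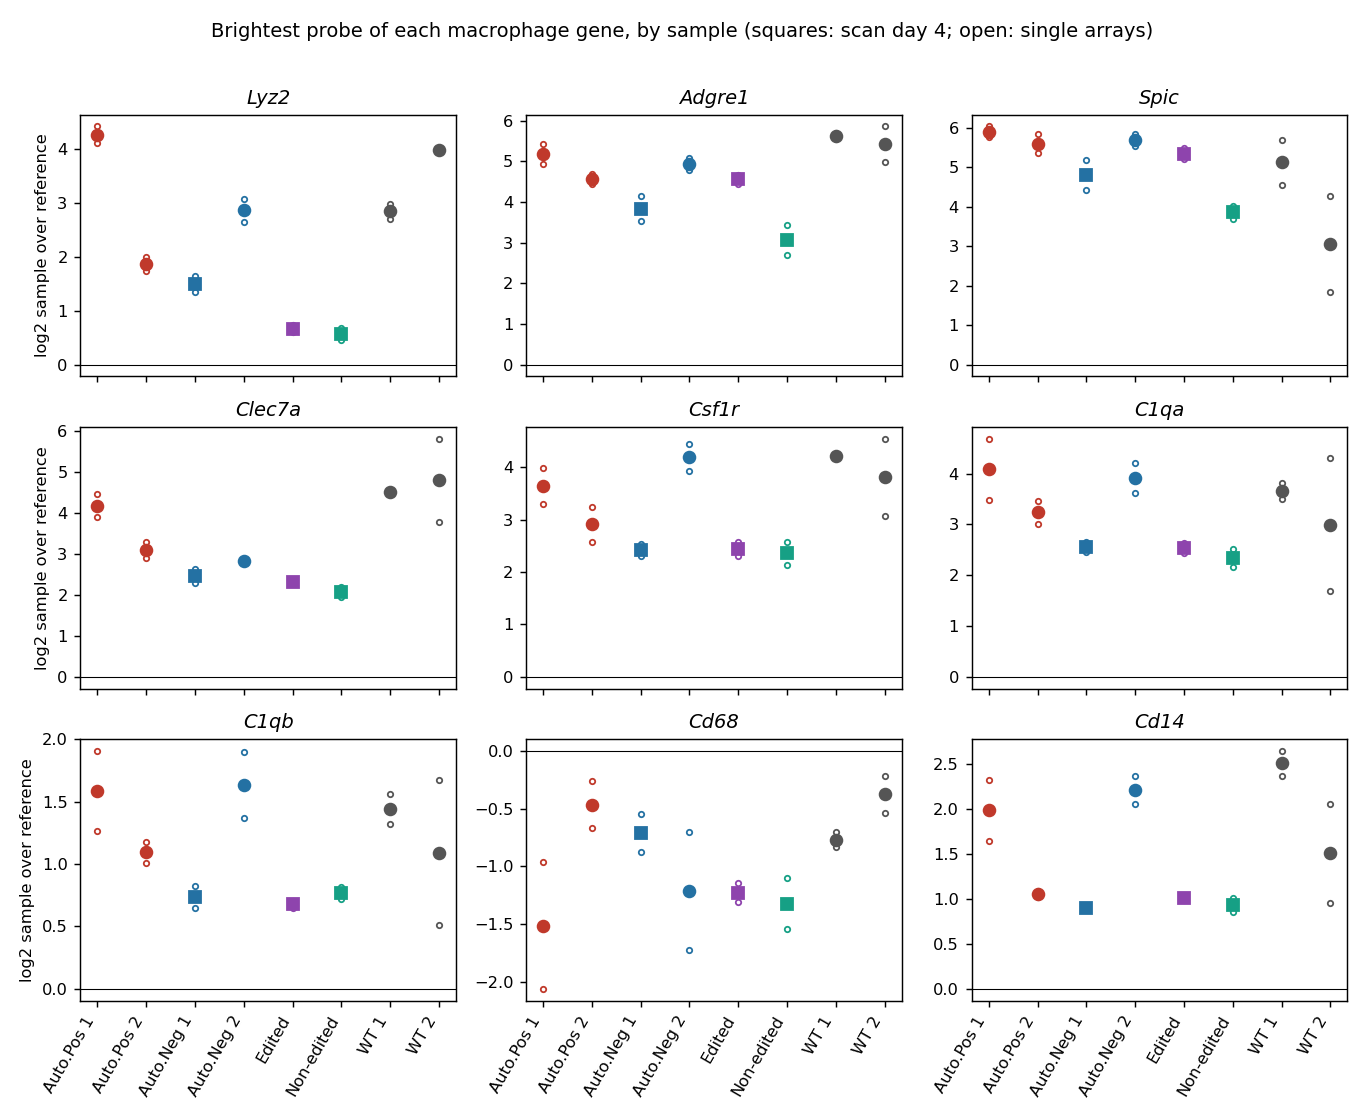
Log2 sample over reference (vertical axis, own scale per panel) of the brightest probe of each of the 9 genes in the 8 samples (horizontal axis), with filled symbols for the mean of the 2 arrays and small open circles for the single arrays. Squares mark the 3 samples of scan day 4, which are the lowest in the panels of Lyz2, Adgre1, Clec7a, Csf1r, C1qa, C1qb and Cd14.

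Of the 9 genes, 7 had a median r of at least 0.624 with the other 8 across the samples, and Spic and Cd68 had lower ones. Over the 36 pairs of the 9 genes, the median Pearson r across the 8 samples was 0.671 and the median Spearman rho 0.702, and 31 pairs had an r above 0. With the log ratio of the scanner software in place of the intensities the median r was 0.285. Over all pairs of measured genes the median r was 0.05. An r above 0.7 was reached by 16 of the 36 pairs (44.4%), against 9.12% of all gene pairs. C1qa and C1qb had the highest r, 0.980, followed by Csf1r with Cd14 at 0.937. Spic had a median r of 0.165 with the other 8 genes and Cd68 one of -0.02. Spic was nearest to the complement genes, with an r of 0.566 (rho 0.714) with C1qa and of 0.440 (rho 0.595) with C1qb, or 0.699 and 0.630 without WT sample 2, whose arrays disagreed on Spic, and Non-edited. With the 2 samples farthest from the median of the first gene left out of each pair, the median r was 0.636. These are descriptions over 8 samples that share a reference, groups, slides and scan days, with no test. Deviations of the 6 replicated samples from their group means had a median r of 0.616, against 0.087 over all gene pairs. With 2 samples per group the 2 deviations of a group mirror each other. The 2 samples of each group were also scanned on different days.

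**Figure D3:**
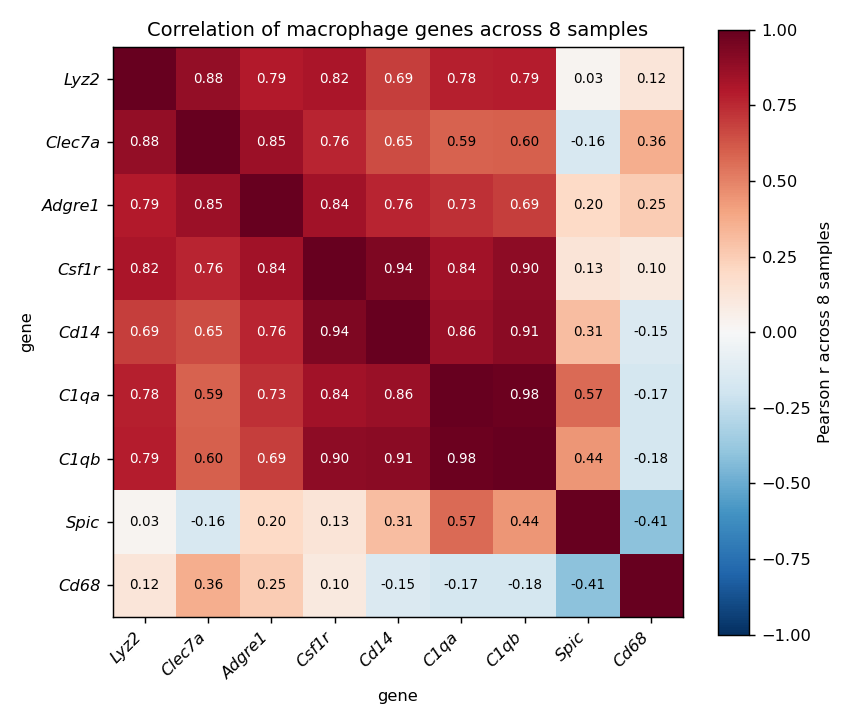
Pearson r across 8 samples for every pair of the 9 genes (both axes), from -1 in blue to 1 in red. A block of 7 genes is red, with C1qa and C1qb at 0.98, and the row of Spic runs from -0.41 with Cd68 to 0.57 with C1qa.

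The lowest samples shared a scan day. Centred on its own mean, the median of the 9 genes was 0.53 and -0.08 in Auto.Pos samples 1 and 2, -0.62 and 0.55 in Auto.Neg samples 1 and 2, -0.51 in Edited, -0.89 in Non-edited and 0.53 and 0.56 in WT. The 3 lowest samples are the 3 of scan day 4. They are also 3 of the 4 Thy-1 knockout samples, and the fourth, Auto.Neg sample 2, which was scanned on day 2, was among the highest. The 6 arrays of scan day 4 were also the dimmest, with a median log2 intensity of 6.95 to 7.14 against 7.33 to 7.92 on all other arrays but 1. That array, the second of WT sample 2, stood at 9.61, against 7.54 on the first array of this sample. The scanner protocol moved with the pattern too, as the mean centred value of the 9 genes was 0.42 to 0.67 in the 3 samples of protocol 2 (Auto.Pos sample 1, Auto.Neg sample 2 and WT sample 1) and -0.96 to 0.33 in the 5 of protocol 1. Among those 5, the samples of scan day 4 had -0.96 to -0.53, against -0.03 in Auto.Pos sample 2 and 0.33 in WT sample 2. The part of intensity and protocol in the pattern was not tested. In 7 of the 9 genes all 3 samples of scan day 4 lay below all 5 others, as did 9.15% of all genes, and 0 of the 9 lay above them, against 4.97% of all genes. This split was chosen after the values were seen. The difference of day 4 from the other days was -2.26 for Lyz2, -1.60 for Clec7a, -1.35 for Csf1r, -1.33 for Adgre1, -1.10 for C1qa, -0.91 for Cd14 and -0.64 for C1qb, on the log2 scale. For Spic it was -0.41 and for Cd68 -0.22, with overlapping samples.

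Within scan days the relation was weak. Deviations from the scan day means, over the 7 samples that share a day, had a median r of 0.123 over the 36 pairs, against 0.002 over all gene pairs, and no day held more than 3 samples, too few for an r of its own. Auto.Neg sample 1 against Auto.Neg sample 2, which have the same genotype and differ in scan day, slide and scanner protocol, differed by -1.76 for Csf1r, -1.38 for Lyz2, -1.37 for C1qa, -1.31 for Cd14 and -1.11 for Adgre1. For C1qb and Spic the difference was -0.89, for Clec7a -0.38 and for Cd68 0.50, the only one of the 9 in the other direction. Scan day, slide, scanner protocol and the cells of each sample cannot be told apart here.

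Gene lists of other cell types were set beside these values. Over all genes, 12246 of 20487 were lower on scan day 4 (median difference -0.07), and 9.15% lay below all other samples. Of 39 other macrophage and monocyte genes 32 were lower (median -0.55, 15 below and 2 above all other samples), as were 12 of 14 genes of red pulp macrophages and iron recycling (median -0.66, 6 below all others). Vcam1, an adhesion molecule of red pulp macrophages named here after its values were seen, read 4.40 to 4.61 on day 4 and 5.05 to 7.06 otherwise. Of the erythroid genes 7 of 8 were lower (median -0.83, 0 below all others), and of the platelet genes 10 of 12 (median -1.20, 4 below all others). Follicular B cell genes were lower in 6 of 16 (median 0.20) and plasma cell genes in 2 of 8 (median 0.28). The remaining lists lay closer to all genes, with 10 of 15 T cell genes lower (median -0.08), 5 of 7 NK cell genes (median -0.08), 6 of 9 dendritic cell genes (median -0.17) and 7 of 12 neutrophil genes (median -0.13). Per sample, the centred median of the erythroid genes was 0.40 and -0.38 in Auto.Pos, 0.06 and 0.47 in Auto.Neg, -1.01 in Edited, -0.58 in Non-edited and 0.63 and 0.46 in WT. That of the platelet genes was 2.00 and 0.09 in Auto.Pos, -0.30 and -0.11 in Auto.Neg, -0.88 in Edited, -0.84 in Non-edited and -0.40 and 0.36 in WT. Platelet genes were thus highest in Auto.Pos sample 1, where the 9 macrophage genes stood at 0.53. All 8 erythroid genes measured were well above background on 16 of 16 arrays. The part of other cells in the macrophage values was not tested.

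**Figure D4:**
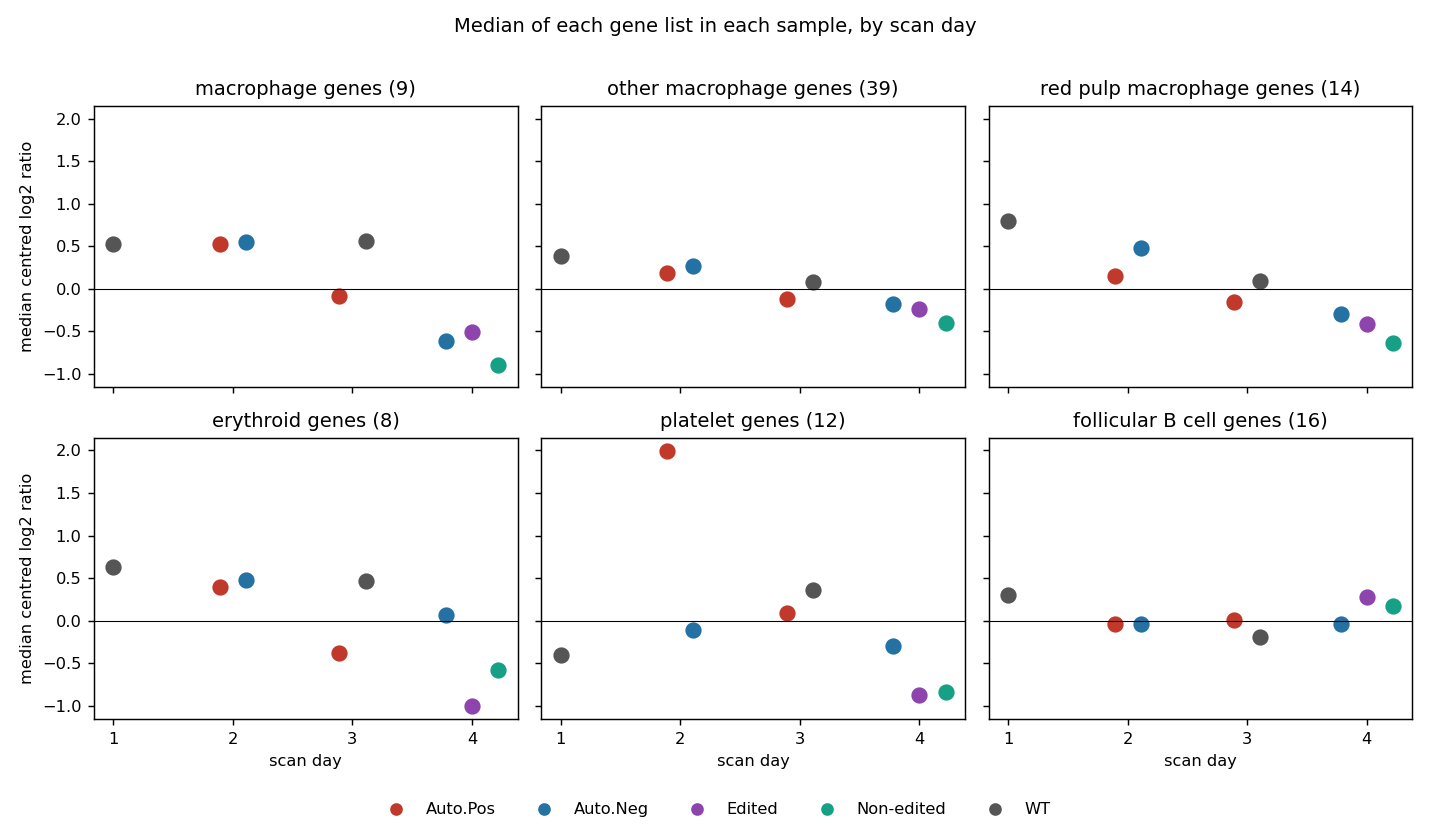
Median over each gene list of the log2 ratio centred on the mean of each gene (vertical axis) in every sample, by scan day (horizontal axis), with 1 point per sample coloured by group and the number of genes in the panel title. The 3 samples of day 4 lie at -0.62, -0.51 and -0.89 for the 9 macrophage genes and at -0.03, 0.28 and 0.18 for follicular B cell genes.

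Promoter windows were read for the genes the table holds, which include 3 of the 7 that moved alike. The RefSeq promoter table (build GRCm38.p6, 250 bases before to 50 after each start site) matched 5 of the 9 genes, Lyz2, Spic, Clec7a, C1qb and Cd68. The motif searched was GAGGAA, the core of the PU box bound by the ETS factors PU.1 and Spi-C, on both strands. It was present in Clec7a, C1qb and Cd68, which is 3 of 5 genes, counted by gene over all its windows. Of all 32851 windows 28.3% held it, counted by window, and the difference was not tested. The windows of Lyz2, Clec7a and C1qb, the 3 that moved alike, are printed with the motif in capitals.
Lyz2, chr10:117282223-117282522, minus strand: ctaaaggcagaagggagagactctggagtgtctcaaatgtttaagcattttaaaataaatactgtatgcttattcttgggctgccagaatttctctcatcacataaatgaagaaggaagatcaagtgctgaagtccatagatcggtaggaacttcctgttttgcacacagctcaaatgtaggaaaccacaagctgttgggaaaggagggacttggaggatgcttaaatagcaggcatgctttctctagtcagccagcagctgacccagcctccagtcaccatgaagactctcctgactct
Clec7a, chr6:129472730-129473029, minus strand: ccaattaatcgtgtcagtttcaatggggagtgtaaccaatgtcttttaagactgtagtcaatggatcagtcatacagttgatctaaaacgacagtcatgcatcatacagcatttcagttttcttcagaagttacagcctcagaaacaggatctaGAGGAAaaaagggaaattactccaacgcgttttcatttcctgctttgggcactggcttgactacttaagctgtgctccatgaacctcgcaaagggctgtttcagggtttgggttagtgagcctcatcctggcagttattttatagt
C1qb, chr4:136886151-136886450, minus strand: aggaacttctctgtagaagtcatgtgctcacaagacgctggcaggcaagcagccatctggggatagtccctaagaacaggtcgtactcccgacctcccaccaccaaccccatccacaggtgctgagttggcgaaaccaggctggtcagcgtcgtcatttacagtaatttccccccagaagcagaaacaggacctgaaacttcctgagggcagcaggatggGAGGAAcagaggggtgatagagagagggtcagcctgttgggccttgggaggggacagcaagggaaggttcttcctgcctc
The motif starts at -96 from the start site in Clec7a and at -30 in C1qb, both on the strand of the gene. The window of Lyz2 does not hold these letters, and that of Cd68, which did not move with the others, holds them once on each strand. A match describes the sequence and shows no binding site.

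Auto.Pos against Auto.Neg sets cells with a self-reactive receptor against cells whose Thy-1 antigen is missing. None of the 9 genes passed the test. In Auto.Pos 6 were higher and 3 lower, with a median difference of 0.43 against 0.02 over all genes. Clec7a differed most, averaging 3.63 ± 0.77 in Auto.Pos and 2.64 ± 0.27 in Auto.Neg (SD, n = 2 each), a difference of 0.99 (SE 0.410, limma adjusted p = 1.00). It was the only one of the 9 whose groups did not overlap in the upward direction, as 11.1% of all genes did not, and 0 of the 9 were apart in the downward direction, against 8.17%. limma called 0.0146% of all genes, 3 in number. Inside slide 2, which held Auto.Pos sample 1 and Auto.Neg sample 2, the difference was 1.34 for Clec7a and 1.40 for Lyz2. The median of the 9 genes was 0.16 there, smaller than between the groups. Without Auto.Neg sample 1 the median difference was -0.07, and over the 6 ways of leaving out 1 replicated sample it ran up to 0.95, without Auto.Neg sample 2.

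Auto.Pos against WT gave 3 of the 9 genes higher and 6 lower, with a median of -0.42 against 0.06 over all genes, and again none was called, among 0% of all genes (1151 of which had an unadjusted p under 0.05). Spic was higher in Auto.Pos without overlap, at 5.74 ± 0.21 in Auto.Pos and 4.08 ± 1.46 in WT (SD, n = 2 each), a difference of 1.66 (SE 0.731, limma adjusted p = 0.920) that was 0.63 without WT sample 2 and 2.70 without WT sample 1. Such separation was seen in 19.2% of all genes. By sample means Adgre1, Clec7a and Csf1r were lower without overlap, as were 10.4% of all genes. Clec7a averaged 3.63 ± 0.77 in Auto.Pos and 4.65 ± 0.20 in WT (SD, n = 2 each), with a difference of -1.01 (SE 0.410, limma adjusted p = 0.902), or -0.47 without Auto.Pos sample 2 and -1.56 without Auto.Pos sample 1. The median of the 9 was -0.02 and -0.95 without these samples. On scan day 3, Auto.Pos sample 2 minus WT sample 2 was -2.11 for Lyz2, -1.70 for Clec7a, -0.86 for Adgre1 and 2.55 for Spic.

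Auto.Neg against WT showed 1 gene higher, Spic, and 8 lower, with a median of -0.45 against 0.04 over all genes. Clec7a had the largest difference of the 9 in any of these comparisons, averaging 2.64 ± 0.27 in Auto.Neg and 4.65 ± 0.20 in WT (SD, n = 2 each). The difference was -2.00 or 4.01-fold lower (SE 0.410, limma unadjusted p = 0.00431 and limma adjusted p = 0.607). The SD is that of sample means and leaves out the disagreement of the 2 arrays of WT sample 2, which gave 5.80 and 3.78. By sample means, though not by single arrays, Adgre1 was lower without overlap too, at 4.39 ± 0.78 in Auto.Neg and 5.52 ± 0.14 in WT (SD, n = 2 each), with a difference of -1.14 (SE 0.437, limma adjusted p = 1.00). These are 2 of 9 genes, against 9.57% of all genes apart in this direction, while 0 of the 9 and 15.4% of all genes were apart upwards. No gene of the 9 or of the whole table, 0%, was called (945 had an unadjusted p under 0.05). No scan day held both groups. Without Auto.Neg sample 1, the sample of day 4, the median was 0.18 and 5 of the 9 genes were higher, and without WT sample 1 it was -0.50 with 4 genes higher. In Auto.Neg minus WT the Clec7a difference kept its direction without any 1 of the 6 replicated samples, at -2.20 to -1.81.

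With scan day as a random term, an alternative added after the data were seen, limma called 5 of the 9 genes in Auto.Pos against WT, among 20.4% of all genes, namely Lyz2, Adgre1, Clec7a and Csf1r as lower and Spic as higher. It called 1, Clec7a, in Auto.Neg against WT, among 2.21% of all genes, with an adjusted p of 0.024. In Auto.Pos against Auto.Neg it called 0 of the 9, among 0.19% of all genes. The estimated correlation within a day was 0.917, and for 50.7% of genes it stood at 0.99, the highest value allowed, so for these genes the estimate lay at its limit. Of Auto.Pos and WT, only Auto.Pos sample 2 and WT sample 2 shared a day, on different slides. At so high a correlation the fit of Auto.Pos against WT rests mainly on this 1 pair, and the arrays of WT sample 2 disagreed most with each other. Auto.Neg and WT shared no day.

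Edited and Non-edited cells, from mice of 1 genotype and scanned on the same day, had 1 sample each and no test. Adgre1 read 4.55 in Edited and 3.06 in Non-edited, a difference of 1.49 (2.81-fold), with 1.02 and 1.97 in the 2 dye orientations. Spic read 5.34 in Edited and 3.85 in Non-edited, likewise 1.49 (2.80-fold), with 1.20 and 1.78. The dimmer Spic probe gave 1.23. These 2 of the 9 genes were at least 2-fold higher in both orientations, as were 1.22% of all genes, and 0 of the 9 were at least 2-fold lower, against 0.172%. The other 7 genes lay between -0.09 and 0.25. Both samples belong to scan day 4 but lay on different slides, so this difference lies within a day but not within a slide.

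**Figure D5:**
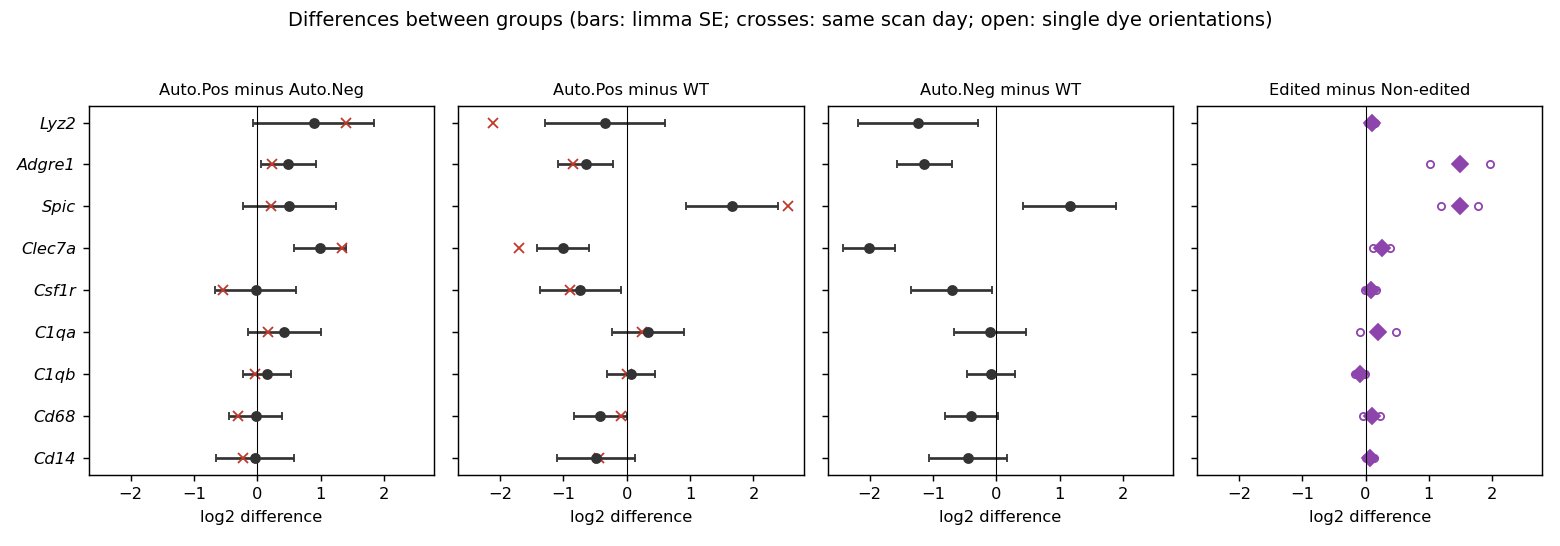
Log2 difference between groups (horizontal axis) for each of the 9 genes (vertical axis) in the 4 comparisons, with limma standard errors as bars in the first 3 and no error in the last, where open circles are the 2 dye orientations. Crosses are the single differences inside a shared scan day. Clec7a lies at -2.00 in Auto.Neg minus WT, and Adgre1 and Spic lie at 1.49 in Edited minus Non-edited.

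The wider macrophage lists held no called gene in the 3 tested comparisons. Of 39 other macrophage and monocyte genes, 27 were higher and 12 lower in Auto.Pos against Auto.Neg (median 0.03), 15 higher and 24 lower in Auto.Pos against WT (median -0.13), and 15 higher and 24 lower in Auto.Neg against WT (median -0.27). Marco, a scavenger receptor, had the largest difference without overlap in Auto.Pos against Auto.Neg, 0.98. In Auto.Pos against WT it was Slc11a1, the phagosomal metal transporter, at -1.02, followed by C1qc at -0.95, and in Auto.Neg against WT it was Ms4a7 at -1.06. Of the 14 red pulp and iron recycling genes, among which Slc11a1 is counted again, 13 were lower and 1 higher both in Auto.Pos against WT (median -0.53) and in Auto.Neg against WT (median -0.43), comparisons that share the WT samples. Over all genes, 8182 of 20487 were lower in Auto.Pos against WT and 8688 in Auto.Neg against WT. Trf, the transferrin gene, differed by -1.06 in Auto.Pos against WT (limma adjusted p = 0.404) and by -0.86 in Auto.Neg against WT (limma adjusted p = 0.711). In Edited against Non-edited, 0 of these genes were 2-fold apart in both orientations.

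By correlation with the mean of the 9 genes over the 8 samples, the genes most alike among those with an SD of at least 0.5 were LOC676546 (r = 0.974), Itgb5 (0.970), Spn (0.969), Clec4a2 (0.968), Fmnl2 (0.967) and Zfp609 (0.965), followed by Inpp5k, Rps27, NAP103344-1, Ms4a4c, Rwdd1 and H2bu2 at 0.950 to 0.962. Clec4a2, which encodes an inhibitory lectin receptor of myeloid cells, read 2.06 and 1.33 in Auto.Pos, 1.18 and 2.15 in Auto.Neg, 1.01 in Edited, 0.86 in Non-edited and 2.18 and 1.86 in WT. Again the 3 samples of scan day 4 were lowest. None of these 12 genes belongs to the lists of macrophage genes. The median r with this mean was 0.795 over the 14 red pulp genes, 0.740 over the 8 erythroid genes, 0.649 over the 12 platelet genes, 0.626 over the 39 other macrophage genes and -0.357 over the 16 follicular B cell genes, against 0.219 over all genes, of which 15.9% had an r above 0.7.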

How the data were processed

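RNA of 8 biological samples was measured on 16 Agilent arrays, each sample on a dye-swap pair against 1 reference RNA, starting from 100 ng of total RNA per the labels. The deposited scanner files hold spot intensity values and a log10 ratio per spot, background-subtracted and dye-normalized, written by Agilent Feature Extraction (9.1.1.1, 9.1.3.1 and 9.5.1.1) per the file headers. The deposited series table holds log2 ratios. The submitters' processing notes name limma, and the authors' steps are not otherwise known. The columns of the series table have medians of -0.0191 to 0.0176, and 6 of 16 match their own array best. Against red over green of the best array, r was 0.985 to 0.998 for columns of the first arrays (sample in Cy5). For columns of the second arrays (sample in Cy3) r was -0.994 to -0.982, the opposite direction. How the table was centred stays unknown, and it served as an alternative only.

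From the mean signal and median background, normexp (offset 50) and loess within arrays were run in R 4.3.3 with limma 3.58.1, with control spots at weight 0 and outlier-flagged spots left out. Ratios were turned to sample over reference by the dyes in the labels, and the mean of each dye-swap pair counted as 1 replicate. Probes had to be well above background on both arrays of at least 2 samples, and each gene was read from its brightest probe. limma fitted 1 mean per group (3 residual df), with Benjamini-Hochberg adjustment over 20487 genes at 0.05. Edited against Non-edited had no test, and at least 2-fold in both dye orientations counted as called.

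The 9 genes and all gene lists were chosen with earlier results of these data known. Named list genes were those with the largest differences among genes whose groups did not overlap, and the 12 genes most alike had the highest correlation with the mean of the 9. The fit with 1 mean per group was run on simulated data for Auto.Pos against Auto.Neg, with independent noise and no scan day, slide or dye effect. The fits with a further or random term were not tried that way. Samples were not treated as paired by replicate number, and same-numbered deviations correlated at -0.788, 0.252 and -0.279. As the samples also share slides and scan days, these values cannot show whether the cells were paired. Alternatives covered background correction, normalization, the dim probe filter, the probe rule, scanner protocol, scan day, the series table and leaving out each sample. Gene names came from the accession, symbol or synonym of the array design.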

Additional observations from a re-analysis of the deposited data

How the results depend on the processing

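Of 459 differences of single genes computed under alternatives, 413 kept direction and call. In Edited against Non-edited, which has no test, 59 of 63 moved by less than the gap between the dye orientations. The other 4 were Lyz2 (0.0962, then 0.352) and Csf1r (0.0821, then 0.299) with median centring, and Spic (1.49, then 2.26) and Clec7a (0.255, then -0.245) with the scanner's ratio. Smaller moves also turned a direction. C1qb (-0.0887) became 0.0549 with median centring and 0.0259 with the scanner's ratio, and Csf1r became -0.0141 with the mean of its probes. Slide as a random term could not be fitted, and scan day as a fixed term leaves no residual degrees of freedom. The cause of each change was not tested. The genes called in Auto.Pos minus Auto.Neg, 3 in all, were 1 with median centring, 0 without a filter, 0 with scale normalization, 6 with scanner protocol as a term, 39 with scan day as a random term, 6 with WT sample 2 read from its first array, and 0 whichever single sample was left out, the remaining sample of its group being assumed to vary like the others. With the replicate block they were 0, and the block moved no other count of calls. In Auto.Pos minus WT, 0 genes became 15 with the scanner's own ratio, 6 with scale normalization, 46 with WT sample 2 from its first array and 4174 with scan day as a random term, which called 452 in Auto.Neg minus WT. That term also called 5 and 1 of the 9 genes in these comparisons. The number of the 9 genes higher in Auto.Neg minus WT was 2 without background correction, with the scanner's ratio, with scan day as a random term and with the rematched series table, and 1 to 5 without single samples. In Auto.Pos minus WT it was 1 with scale normalization and with the first array of WT sample 2, and 7 with the series table as labelled. That table gave medians of 3.83 in Auto.Pos minus Auto.Neg, 0.333 in Auto.Pos minus WT and -3.48 in Auto.Neg minus WT. Without single samples the Auto.Neg minus WT median was -1.1 to 0.177. The centred median was -0.312 (median centring) and -0.257 (scanner's ratio) in Edited, -0.558 (scanner's ratio) in Non-edited and 0.269 (scale) in WT sample 1. The median r of pairs was 0.285 with the scanner's ratio, 0.544 with scale normalization, 0.808 with the first array of WT sample 2, 0.123 for deviations from scan day means and 0.601 to 0.781 without single samples.

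Several directions turned. In Auto.Pos minus WT, C1qb became -0.21 with median centring, -0.125 with the scanner's ratio, -0.0785 with scale normalization, -0.0215 with scan day as a random term and -0.218 with the first array of WT sample 2, and C1qa became -0.15 with scale and -0.319 with that array. In Auto.Neg minus WT, C1qa became 0.0692 without background correction and 0.236 with the scanner's ratio, and Cd68 became 0.116 with the random term. In Auto.Pos minus Auto.Neg, C1qa became -0.00616 and Cd68 0.0203 with the scanner's ratio, Cd68 0.042 with scale, C1qb -0.000628 with the random term and Csf1r 0.136 with the mean of its probes. Leaving out single samples turned Auto.Pos minus Auto.Neg for Lyz2 (-0.312 to 2.09), Adgre1 (-0.069 to 1.04), Csf1r (-0.91 to 0.854), C1qa (-0.258 to 1.11), C1qb (-0.291 to 0.601), Cd68 (-0.55 to 0.499) and Cd14 (-0.691 to 0.618). It turned Auto.Pos minus WT for Lyz2 (-1.55 to 0.858), C1qa (-0.0888 to 0.753), C1qb (-0.173 to 0.318), Cd68 (-0.941 to 0.108) and Cd14 (-0.984 to 0.0159), and Auto.Neg minus WT for Csf1r (-1.59 to 0.177), C1qa (-0.778 to 0.59), C1qb (-0.529 to 0.363) and Cd14 (-1.1 to 0.207).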
